A study of Homo sapiens with 9 samples.

Results

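The 10 genes described here encode S100 proteins, small and mostly calcium-binding proteins that are abundant in basal-like breast cancer. They were taken by symbol as the rows S100A2, S100A4, S100A6, S100A7, S100A8, S100A9, S100A10, S100A11, S100A14 and S100A16 of a gene table of 56809 symbols. All 10 were among the 14709 genes tested. RNA was measured by bulk sequencing of polyadenylated transcripts in 9 libraries of MDA-MB-468, an established human breast adenocarcinoma line, with 200000 cells per library. The 3 control libraries came from cells infected with the empty hairpin vector pSicoR, 3 libraries from cells infected with pSicoR carrying the short hairpin shLMO2-1, and 3 from cells infected with pSicoR carrying shLMO2-2. Both hairpins are named for LMO2, an adaptor protein of transcription factor complexes. Every group therefore carried the vector. The labels give neither the time after infection nor whether a group was a mixed infected population or a clone. They also do not say whether the 3 libraries of a group were separate cultures, so p-values measure the spread between these libraries, which may be technical.

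S100 proteins usually work as dimers. On most of them, though not all, calcium opens a hydrophobic face, which then binds a target such as an annexin, a myosin or a kinase. Inside the cell they act on the cytoskeleton, membranes and gene regulators, and several are also released and then act as alarm signals or bind zinc and manganese away from microbes. In breast epithelium S100A8, S100A9 and S100A7 are known as stress and inflammation genes, S100A4 as a gene of cell motility, and S100A14 and S100A16 as genes of epithelial cells.

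Library totals ran from 15494486 to 23069456 estimated counts, and the shLMO2-2 libraries were the deepest. LMO2 itself had 4 to 35 estimated counts in the control libraries and 1 to 6 in the hairpin libraries, too few for a precise check of the labels. The line's markers EGFR, KRT5 and KRT8 were at 1705 to 7937 CPM (a gene's share of the library's counts on a common scale, with library sizes adjusted by the trimmed mean of M-values, TMM) in every library, and the progesterone receptor gene PGR was at 0 in all 9. The 10 S100 genes together held 0.205% to 0.227% of the counts in control, 0.192% to 0.218% under shLMO2-1 and 0.229% to 0.236% under shLMO2-2.

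The 80 bases around the start are shown for the 5 members called changed against control and for S100A10. The 5 held the letters of a TATA element there, but for S100A8 the start was chosen because it held them. Windows run from 60 bases before the start to 20 bases after it, from RefSeq promoters on GRCh38.p14, read 5′ to 3′ on the gene's strand. Capitals mark the letters TATAA. The first 5 genes passed the test in at least 1 comparison with control and S100A10 did not. S100A14, not shown, did not pass it either and held the letters, so S100A10 does not stand for all members not called.
S100A8 (chr1:153391054-153391133, minus strand): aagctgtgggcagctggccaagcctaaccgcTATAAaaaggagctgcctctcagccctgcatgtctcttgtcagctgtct
S100A9 (chr1:153357794-153357873, plus strand): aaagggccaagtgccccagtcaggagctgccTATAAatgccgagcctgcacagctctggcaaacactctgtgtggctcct
S100A7 (chr1:153460632-153460711, minus strand): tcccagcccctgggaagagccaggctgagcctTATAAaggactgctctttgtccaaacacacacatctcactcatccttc
S100A4 (chr1:153545787-153545866, minus strand): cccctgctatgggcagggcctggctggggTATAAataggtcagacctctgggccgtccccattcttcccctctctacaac
S100A6 (chr1:153535972-153536051, minus strand): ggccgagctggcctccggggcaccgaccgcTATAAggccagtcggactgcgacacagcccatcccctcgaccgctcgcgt
S100A10 (chr1:151993840-151993919, minus strand): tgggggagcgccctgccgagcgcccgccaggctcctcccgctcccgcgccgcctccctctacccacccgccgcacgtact

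TATAA began 28 to 31 bases before the start in these 5 genes and 29 bases before it in S100A14. The letters were not in the 80-base windows of S100A2, S100A10, S100A11 or S100A16. They were also not in that of S100A3, a further S100 gene, which fell under both hairpins. For S100A8 RefSeq lists 3 starts, and the one shown was chosen after the scan because it held the letters. Of its other starts, 1 had no TATAA in its 300-base window and 1 had it 126 bases before the start. TATAA with its first base 35 to 25 bases before the start, on the gene's strand, was in 3.57% of the 35116 windows in the table. Among tested genes with a window, 402 held it. Of these, 14.4% were called changed under shLMO2-1 and 15.7% under shLMO2-2, against 8.82% and 9.05% of the tested genes without it. These shares describe the genes and carry no test. On either strand of the 300-base window, AGATAA, a letter string of GATA factor sites, was in none of the 10 members and in 10.3% of all windows. CANNTG, the E-box, was in 68.7% of all windows, so its presence separates few genes.

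Called here means an adjusted p under 0.05 in edgeR's quasi-likelihood test with Benjamini-Hochberg adjustment over all tested genes. Under shLMO2-1, 3 of the 10 S100 genes were called, against 8.42% of all tested genes: S100A8 rose, and S100A4 and S100A6 fell. For the directions the background was 4.54% of tested genes higher and 3.88% lower. Under shLMO2-2, 4 of 10 were called, against 8.97% of all tested genes: S100A7, S100A8 and S100A9 rose, and S100A4 fell (background 4.94% for a rise and 4.04% for a fall). Averaging the hairpins called the same 4 genes, against 12.4% of all tested genes (6.47% for a rise and 5.93% for a fall). The 2 hairpin comparisons share their control libraries, so S100A4 and S100A8, called in both, are not independent repeats.

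**Figure D1:**
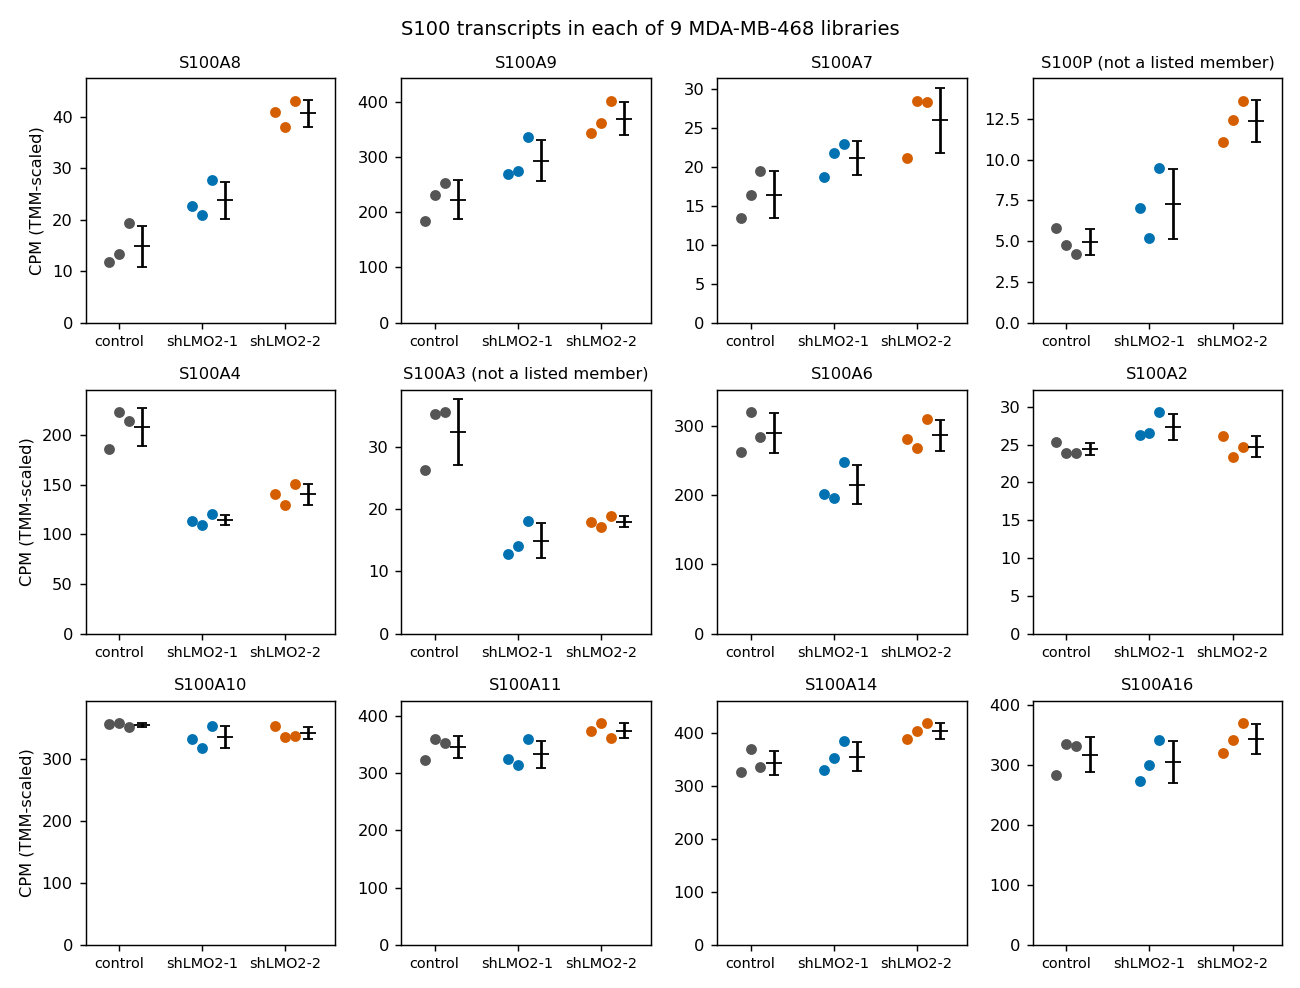
Each panel plots 1 S100 gene, with CPM (TMM-scaled) on the y axis from 0. Points are the 3 libraries of control, shLMO2-1 and shLMO2-2, and the bar beside them is their mean ± SD. S100A8 separates the 3 groups without overlap, S100A4 is lower in all 6 hairpin libraries, and S100A10 stays between 319 and 359 CPM in all 9.

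S100A8 and S100A9 form calprotectin, a heterodimer that binds calcium, zinc and manganese and is best known from neutrophils and inflamed epithelium. S100A8 (chromosome 1, 153390032 to 153391188, minus strand) was at 11.8, 13.4 and 19.4 CPM in control replicates 1 to 3, at 22.7, 20.9 and 27.8 CPM under shLMO2-1 and at 41.0, 38.1 and 43.2 CPM under shLMO2-2. The groups did not overlap, with control lowest and shLMO2-2 highest. The means were 14.8 ± 4.02, 23.8 ± 3.61 and 40.7 ± 2.58 CPM (SD, n = 3 libraries each). Its log2 fold change was 0.68 (SE 0.171, adjusted p = 0.0353) under shLMO2-1 and 1.45 (SE 0.169, adjusted p = 0.000738) under shLMO2-2, by edgeR's quasi-likelihood test. The shLMO2-2 call held under every alternative run. In bulk RNA, more cells that express a gene and more RNA per cell cannot be told apart.

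The shLMO2-1 call of S100A8 rested on the full set of libraries. Its adjusted p was 0.0647 without control replicate 1 and 0.0958 without control replicate 2. Leaving out shLMO2-1 replicate 1, 2 or 3 gave 0.0729, 0.0585 or 0.124. Leaving out shLMO2-2 replicate 1, 2 or 3 gave 0.0524, 0.0572 or 0.0505. Of these runs without 1 library, only that without control replicate 3 kept it under 0.05. With only the groups compared in the fit, the adjusted p of S100A8 was 0.0828. The direction was upward each time, with log2 fold changes of 0.53 to 0.92 over all alternatives.

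S100A9 (153357854 to 153361027, plus strand), the partner subunit of S100A8, was far more abundant. It was at 185, 230 and 253 CPM in control, at 270, 275 and 336 CPM under shLMO2-1 and at 344, 362 and 402 CPM under shLMO2-2. All 6 hairpin libraries lay above the 3 controls, and the shLMO2-2 libraries above those of shLMO2-1. The means were 223 ± 35, 294 ± 36.8 and 370 ± 29.8 CPM. S100A9 rose under shLMO2-2, by a log2 fold change of 0.73 (SE 0.119, adjusted p = 0.00479). Under shLMO2-1 the value was 0.40 (SE 0.119, adjusted p = 0.064), which missed the threshold. That value was under the threshold with DESeq2 (adjusted p = 0.0186) and with no filter on low counts (adjusted p = 0.000203).

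The ratio of S100A9 to S100A8 in CPM was 15.7, 17.2 and 13.1 in control, 11.9, 13.2 and 12.1 under shLMO2-1 and 8.41, 9.50 and 9.31 under shLMO2-2. It was lowest in the 3 shLMO2-2 libraries, which did not overlap with any of the other 6. This ratio is a description with no test.

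S100A7, psoriasin, is an antimicrobial protein of squamous epithelium that is also found in some breast tumours. The gene (153457744 to 153460701, minus strand) was at 13.5, 16.5 and 19.5 CPM in control, at 18.7, 21.8 and 22.9 CPM under shLMO2-1 and at 21.1, 28.5 and 28.3 CPM under shLMO2-2. The shLMO2-2 libraries lay above the controls, while shLMO2-1 overlapped with both groups. Its log2 fold change was 0.66 (SE 0.155, adjusted p = 0.0264) under shLMO2-2 and 0.36 (SE 0.157, adjusted p = 0.194) under shLMO2-1. S100A7A, a near-identical neighbour, was at 1.70 ± 0.592, 1.76 ± 0.180 and 2.35 ± 0.211 CPM and was not called. Reads can be divided between the pair, so the S100A7 values carry that uncertainty. The estimated counts of both genes were within 0.01 of whole numbers in every library, and a division of reads was not tested.

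The shLMO2-2 call of S100A7 was lost without control replicate 1 or 2 (adjusted p = 0.0563 and 0.0545) and without shLMO2-2 replicate 2 or 3 (adjusted p = 0.101 and 0.098). With only the groups compared in the fit, S100A7 had an adjusted p of 0.0534. Its rise over the mean of both hairpins, a log2 fold change of 0.51 (SE 0.138, adjusted p = 0.0353), was lost without control replicate 1 or 2 (adjusted p = 0.102 and 0.0817), without shLMO2-1 replicate 2 or 3 (0.0744 and 0.0692) and without shLMO2-2 replicate 2 or 3 (0.0773 and 0.0717).

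S100A4 binds non-muscle myosin and is known for its part in cell motility and metastasis. The gene (153543613 to 153550136, minus strand) was at 186, 224 and 215 CPM in control, at 114, 110 and 120 CPM under shLMO2-1 and at 141, 130 and 151 CPM under shLMO2-2. Every hairpin library lay below every control library, and the shLMO2-1 libraries were the lowest. The means were 208 ± 19.5, 115 ± 5.39 and 141 ± 10.6 CPM. S100A4 fell by 0.86 on the log2 scale under shLMO2-1 (SE 0.0835, adjusted p = 0.00023) and fell by 0.57 under shLMO2-2 (SE 0.0827, adjusted p = 0.00271). Over the mean of both hairpins it fell by 0.71 (SE 0.0700, adjusted p = 0.000208), the smallest adjusted p of the 10 genes. These 3 calls held under every alternative run, with adjusted p no higher than 0.0178.

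S100A6, calcyclin, binds annexins and a ubiquitin ligase adaptor encoded by CACYBP. The gene (153534599 to 153536244, minus strand) was at 263, 320 and 284 CPM in control, at 202, 196 and 248 CPM under shLMO2-1 and at 281, 267 and 310 CPM under shLMO2-2. The shLMO2-1 libraries lay below both other groups, and shLMO2-2 overlapped with control. S100A6 fell by 0.43 on the log2 scale under shLMO2-1 (SE 0.103, adjusted p = 0.0288), and its value under shLMO2-2 was -0.01 (SE 0.102, adjusted p = 0.945). The shLMO2-1 call was lost without control replicate 2 or 3 (adjusted p = 0.0843 and 0.0736) and without shLMO2-1 replicate 1 or 2 (adjusted p = 0.0996 and 0.11). With only the groups compared in the fit, the adjusted p of S100A6 under shLMO2-1 was 0.0554. Over the mean of both hairpins its adjusted p was 0.128. It was 0.0416 without shLMO2-1 replicate 3, 0.0475 with total counts alone and 0.028 with no filter on low counts.

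The other 5 S100 genes were not called in any comparison. S100A10, the partner of annexin A2, averaged 356 ± 3.49 CPM in control, 335 ± 17.9 under shLMO2-1 and 342 ± 9.88 under shLMO2-2. Its log2 fold changes were -0.09 (SE 0.0559) and -0.06 (SE 0.0558). S100A11, which binds annexins in membrane repair, was at 345 ± 19.8, 333 ± 23.7 and 374 ± 13.4 CPM. S100A2, a gene of basal epithelial cells, was at 24.4 ± 0.820, 27.4 ± 1.71 and 24.7 ± 1.42 CPM.

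S100A14 and S100A16 are neighbouring genes of epithelial cells. S100A14 (153614255 to 153616986, minus strand) was at 325, 369 and 336 CPM in control, at 329, 352 and 385 CPM under shLMO2-1 and at 388, 404 and 419 CPM under shLMO2-2. Its shLMO2-2 libraries lay above all the others, yet the log2 fold change of 0.23 (SE 0.0718, adjusted p = 0.07) missed the threshold. It was under the threshold without control replicate 2 (adjusted p = 0.0423), with DESeq2 (adjusted p = 0.0365) and with no filter on low counts (adjusted p = 0.0338). S100A16 was at 317 ± 29.1, 305 ± 34.9 and 344 ± 25.2 CPM, with overlapping groups.

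Without regard to the test, the libraries of shLMO2-1 and control did not overlap for 5 of the 10 genes, against 28.3% of tested genes. For shLMO2-2 and control this was 6 of 10, against 29.9%. All 6 hairpin libraries lay on 1 side of the controls for 3 of 10 (S100A8, S100A9 and S100A4), against 16.7%. The median log2 fold change of the 10 genes was -0.00 under shLMO2-1 and 0.12 under shLMO2-2, where the median over all tested genes was 0.00 and -0.00. The median absolute log2 fold change was 0.26 and 0.18 for the 10 genes, where that of all tested genes was 0.17 for both.

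Between the hairpins, edgeR's quasi-likelihood test called 0 of the 10 S100 genes, against 0.768% of all tested genes (0.347% higher and 0.422% lower under shLMO2-2). At an unadjusted p under 0.05 the count was 6 of 10, against 10.6% of all tested genes. DESeq2 called 2 members (S100A6 and S100A8), against 2.15% of all tested genes, and limma-voom 1 (S100A8), against 0.836%. The largest difference was that of S100A8, a log2 value of 0.78 for shLMO2-2 over shLMO2-1 (SE 0.164, adjusted p = 0.0641). It was under the threshold without control replicate 1 (adjusted p = 0.0163) or control replicate 3 (adjusted p = 0.02). S100A6 differed by 0.41 (SE 0.103, adjusted p = 0.12), S100A9 by 0.33 (SE 0.119, adjusted p = 0.331) and S100A4 by 0.30 (SE 0.0832, adjusted p = 0.179), all higher under shLMO2-2. Without shLMO2-1 replicate 3 the adjusted p of S100A6 was 0.0486. The libraries of the hairpins did not overlap for 7 of 10 genes, against 18.1% of tested genes: shLMO2-2 was higher for S100A4, S100A6, S100A8, S100A9, S100A11 and S100A14 and lower for S100A2.

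The members also shifted together by library within a group. shLMO2-1 replicate 3 was the highest of its group for all 10 genes, and control replicate 1 was the lowest of its group for 8 of 10. These counts were not taken over all tested genes, so they do not show that the shift is particular to the members. In shLMO2-1 replicate 3 the median of the 10 genes' log2 CPM was 0.08 above their means over the 9 libraries, against -0.13 and -0.10 in replicates 1 and 2. Of the 10 genes, S100A14 and S100A16 have median transcripts of 1041.5 and 956 bases and the others of 460.5 to 665. Over the 2996 tested genes with a median transcript under 700 bases, the same median ran from -0.02 in control replicate 1 to 0.03 in shLMO2-2 replicate 3. A median over 10 genes varies more than 1 over 2996, and the part of transcript length in the shift was not tested. When a trend on transcript length was removed from each library, S100A4, S100A6, S100A7, S100A8 and S100A9 kept their calls against control under the single hairpins. The S100A7 call over the mean of both hairpins was lost (adjusted p = 0.0579).

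**Figure D2:**
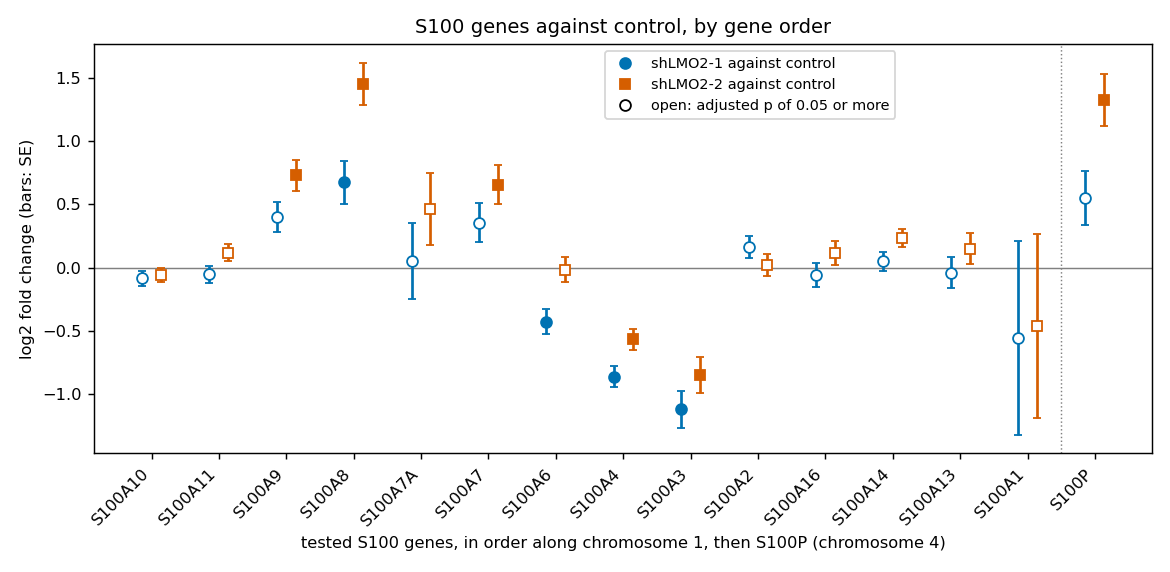
Log2 fold changes against control (y axis) of the tested S100 genes, placed in their order along chromosome 1, with S100P of chromosome 4 at the right. Circles are shLMO2-1 and squares shLMO2-2, bars are SE, and filled symbols have an adjusted p under 0.05. S100A9, S100A8 and S100A7 sit above 0 at 0.36 to 1.45, S100A4 and S100A3 below it at -0.57 to -1.12.

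The order of the S100 genes along chromosome 1 is given here beside their calls, which differed between the hairpins. The 17 S100 genes on chromosome 1 span 1649 kb, and 15 of them stand between S100A9 and S100A1 in 274 kb (153357854 to 153632039, GRCh38, GENCODE 29). S100A9, S100A8 and S100A7, all higher under shLMO2-2, come first in this block among the members. Of these, only S100A8 was called under shLMO2-1. S100A7A, no member, stands between S100A8 and S100A7. It was tested and not called, with log2 values of 0.05 under shLMO2-1 and 0.47 under shLMO2-2. S100A6 and S100A4, lower under shLMO2-1, follow, and of these only S100A4 was called under shLMO2-2. S100A2, S100A16 and S100A14, not called, come last. Only 2 tested genes in the block were not S100 genes, and neither was called. This order is a description with no test.

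Of the 11 other S100 genes in the table, 5 could be tested. S100A3, a zinc-binding protein of the hair cuticle whose gene lies next to S100A4, was at 26.4, 35.4 and 35.7 CPM in control, at 12.8, 14.1 and 18.1 CPM under shLMO2-1 and at 18.0, 17.2 and 18.9 CPM under shLMO2-2. All 6 hairpin libraries were below control. S100A3 fell by 1.12 on the log2 scale under shLMO2-1 (SE 0.148, adjusted p = 0.00139) and fell by 0.85 under shLMO2-2 (SE 0.144, adjusted p = 0.00589). The annotated spans of S100A3 and S100A4 overlap on 1 strand but share 0 exon bases. The ratio of S100A4 to S100A3 in CPM was 6.02 to 7.06 in control, 6.66 to 8.91 under shLMO2-1 and 7.56 to 7.99 under shLMO2-2.

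S100P, on chromosome 4 and known from placenta and carcinomas, was at 5.80, 4.77 and 4.23 CPM in control, at 7.03, 5.22 and 9.49 CPM under shLMO2-1 and at 11.05, 12.4 and 13.6 CPM under shLMO2-2. The shLMO2-2 libraries lay above the other 6. S100P rose under shLMO2-2, by a log2 fold change of 1.33 (SE 0.206, adjusted p = 0.00363), and its value under shLMO2-1 was 0.55 (SE 0.213, adjusted p = 0.14). S100A13 was at 54.6 ± 6.56, 53.2 ± 9.17 and 60.6 ± 2.84 CPM and was not called. S100A1 had 2 to 19 counts per library and was not called. S100A5 had 1 to 7 counts, S100A12 0 to 8 and S100Z 0 to 2, and these were not tested. S100B, S100G and S100A7L2 were at 0 in all 9 libraries.

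**Figure D3:**
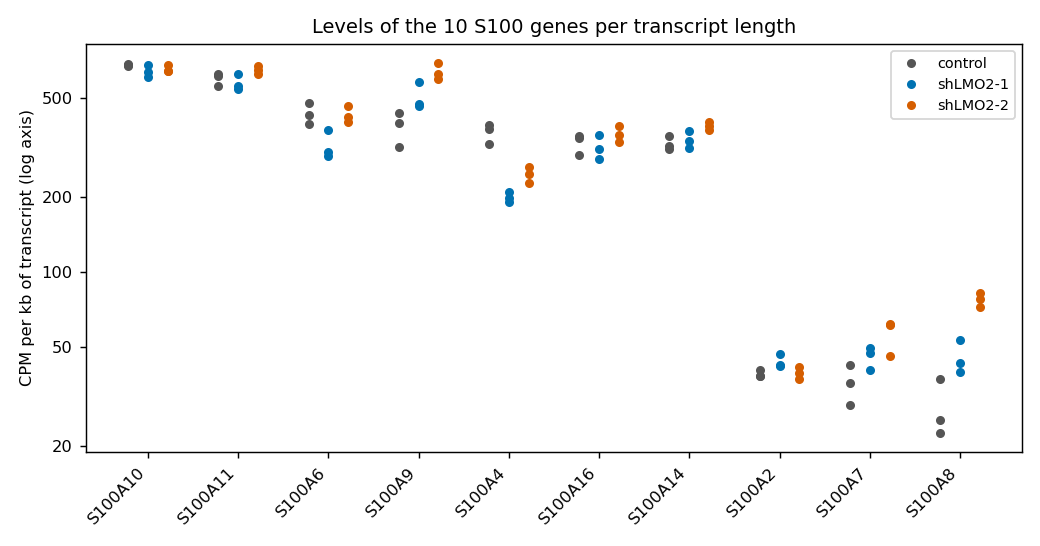
CPM per kb of median transcript length (log y axis) of the 10 S100 genes, ordered by their control mean, with 1 point per library and a colour per group. S100A10 and S100A11 are the highest in control at 683 and 600, and S100A2, S100A7 and S100A8 the lowest at 28.4 to 38.9.

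Levels can be compared between genes only per length. In control, S100A10 was the highest at 683 ± 6.71 CPM per kb of median transcript, then S100A11 at 600 ± 34.5 and S100A6 at 435 ± 43.7. S100A9 at 386 ± 60.7, S100A4 at 366 ± 34.3, S100A16 at 332 ± 30.5 and S100A14 at 330 ± 22.2 followed, each overlapping with its neighbour. S100A2 at 38.9 ± 1.31, S100A7 at 35.8 ± 6.46 and S100A8 at 28.4 ± 7.69 were lowest and also overlapped. S100A9 was the third under both hairpins, at 509 ± 63.9 and 640 ± 51.6 CPM per kb, and overlapped there with S100A11. S100A4 was the seventh under both, at 201 ± 9.46 and 247 ± 18.6 CPM per kb. The order depends on the length used. With the longest transcript of each gene, S100A10 was at 296 ± 2.91 in control and S100A11 was the highest at 581 ± 33.4. With all exons together these were 231 ± 2.26 and 508 ± 29.2, with S100A11 again the highest. S100A9 was the highest under shLMO2-2 with both of these lengths, at 640 ± 51.6.

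Of 15 listed partners and receptors of S100 proteins, 11 were tested. Under shLMO2-1 1 rose and 1 fell, and under shLMO2-2 also 1 and 1. ANXA6, annexin A6, a calcium-dependent membrane-binding protein, was at 120 ± 15.8 CPM in control, 81.7 ± 6.66 under shLMO2-1 and 76.4 ± 2.40 under shLMO2-2. It fell by 0.55 on the log2 scale (adjusted p = 0.00708) and fell by 0.65 (adjusted p = 0.00287). ANXA11, a partner of S100A6, rose under shLMO2-1 by 0.24 (adjusted p = 0.0252), and ANXA1, a partner of S100A11, rose under shLMO2-2 by 0.38 (adjusted p = 0.0231). Both calls were lost when control replicate 2 or 3 was left out, with adjusted p over all alternatives of up to 0.0946 and 0.0939. TLR4, a receptor for extracellular S100A8 and S100A9, was at 0 in all libraries.

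Of 19 listed epidermal differentiation and alarm genes, 18 were in the table and 7 were tested. LCN2, lipocalin 2, an iron-scavenger protein of stressed epithelium, was at 15 ± 0.548, 28.6 ± 1.25 and 29.1 ± 6.10 CPM and rose under both hairpins, by log2 fold changes of 0.93 (adjusted p = 0.00227) and 0.96 (adjusted p = 0.00214). PI3, elafin, an elastase inhibitor, rose by 0.29 (adjusted p = 0.0249) and 0.62 (adjusted p = 0.00052). Its shLMO2-1 call was lost without control replicate 3 or shLMO2-1 replicate 2 or 3, with adjusted p of up to 0.0882. SLPI, a secreted protease inhibitor, rose under shLMO2-2 by 0.58 (adjusted p = 0.00973), and its value under shLMO2-1 was 0.06 (adjusted p = 0.806). No tested gene of this list passed the test downward. The stress keratins of the list did not pass it in any comparison. Under shLMO2-1 the log2 value of KRT16, whose 3 libraries lay below all controls, was -0.40 (adjusted p = 0.0959). Those of KRT6A and KRT6B were -0.47 (adjusted p = 0.408) and -0.19 (adjusted p = 0.712). Under shLMO2-2 the values were -0.06 for KRT16, 0.58 for KRT6A and 0.21 for KRT6B (adjusted p = 0.821, 0.272 and 0.66). In control replicates 1 to 3 KRT6A was at 25.3, 8.92 and 10.5 CPM and KRT6B at 220, 93.9 and 98.5 CPM. LOR, SPRR1A, SPRR3, DEFB4A and IL36G were at 0 in every library. Of 7 genes of the fused S100 type, which join an S100 domain to long repeats, only TCHH could be tested, and it was not called.

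S100A8 and S100A9 are also genes of myeloid cells. Of 10 myeloid markers 3 were tested, and MPO, ELANE, LYZ, FCGR3B and TYROBP were at 0 in all libraries. The 10 summed to 9.62 to 12.1 CPM in control, 10.9 to 14.6 under shLMO2-1 and 8.90 to 10.5 under shLMO2-2, with the control range overlapping both others. CD14 rose in both hairpin groups, each by a log2 fold change of 1.21 (adjusted p = 0.0348 and 0.0323), from a mean of 1.12 CPM, while ITGAM fell by 1.27 under shLMO2-2 (adjusted p = 0.0029). Both CD14 calls were lost without control replicate 2 or 3 (adjusted p of up to 0.132 over the alternatives), and the part of CD14 and ITGAM in the S100 values was not tested. Of 10 fibroblast and endothelial markers 4 were tested and none was called, with sums of 15.3 to 27.2, 25.8 to 31.7 and 22.5 to 27.3 CPM.

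The genes whose log2 CPM was most like that of S100A4 over the 9 libraries, among 11021 genes with a mean of at least 5 CPM, were AKR1C2 (Pearson r = 0.983), RBBP4 (0.981) and HSD17B2 (0.981). For S100A8 they were SSH3 (0.986), PI3 (0.975) and PRPF40B (0.973). These are the closest of many genes over libraries that share their groups and depth, and they carry no p-value.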

How the data were processed

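The authors deposited estimated counts per gene symbol in 1 table for the 9 libraries. The submitters' processing notes list Salmon 0.12, DESeq2 1.22.2 and GRCh38.p12, with no role given, and the step from transcripts to genes and the use of strand are not given in the sources used here. Per the labels' protocols, polyadenylated RNA was selected and NEBNext Ultra II libraries were made. Libraries were grouped by the plasmid in their labels, and none was left out.

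Estimated counts were rounded to whole numbers. edgeR 4.0.16 in R 4.3.3 took TMM scaling and its filterByExpr filter (minimum count 10, minimum total 15). LMO2 fell below this filter and was kept all the same, which gave 14709 tested genes with 99.91% of the counts. A quasi-likelihood fit of all 9 libraries with a factor of 3 groups gave each contrast, and p-values were adjusted by Benjamini-Hochberg over all 14709. The standard error was derived from the log2 fold change and its F statistic. The counts of the 10 genes were within 0.01 of whole numbers in every library, and each symbol stands for 1 gene ID. BX470102.1 overlaps S100A6 and AL450992.1 overlaps S100A11, so their reads could not be told apart for certain. Positions and transcript lengths came from GENCODE 29, and promoter windows from RefSeq (GRCh38.p14). The fits were tested on simulated data.

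The members and lists were chosen with earlier results of these data known. All 10 members were named. Of the other lists, genes called in at least 1 contrast were named, at most the 5 with the smallest p over both hairpins. The 3 genes most correlated with each of 2 members were also named. Alternatives were other scalings, filters and tests (limma-voom with limma 3.58.1, DESeq2 1.42.0), a replicate block, only the groups compared, leaving out each library and, added after seeing the data, removal of a length trend.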

Additional observations from a re-analysis of the deposited data

Results flagged for a closer look

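KRT5, a basal keratin used here to check the line, had a hairpin effect that differed between the hairpins. It was at 3203 ± 44.7 CPM in control, 2648 ± 198 under shLMO2-1 and 3380 ± 254 under shLMO2-2 (SD, n = 3 libraries each). The log2 difference of shLMO2-2 over shLMO2-1 was 0.35 (SE 0.0649, adjusted p = 0.0362, edgeR's quasi-likelihood test). The call was lost without control replicate 3 (adjusted p = 0.0715), without shLMO2-1 replicate 1 or 2 (0.164 and 0.189) and without shLMO2-2 replicate 2 or 3 (0.137 and 0.125). None of the 10 S100 genes was singled out in this way.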

How the results depend on the processing

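Of 710 values of the 10 S100 genes under alternatives, 643 kept their direction and their side of the threshold, 26 lost a call, 26 gained one and 15 changed direction, none of them called. The calls of S100A4 against control and of S100A8 and S100A9 under shLMO2-2 held throughout. Replicate numbers were not taken to pair the libraries in the main fit, since the labels give no such factor and not every same-numbered pair correlated. The 3 pairs of number 1 were at 0.52 to 0.62, those of number 3 at 0.43 to 0.56 and those of number 2 at -0.18 to 0.03. Of 9 libraries, 6 correlated best with their own number. The 18 pairs of unlike number were at -0.67 to 0.54. The correlated values were deviations from the mean of each group of 3 libraries, so those of the 3 numbers depend on one another. The low values of number 2 therefore do not decide whether the numbers pair the libraries. Whether libraries of 1 number shared a batch was not tested. With the replicate block, 2214 genes were called under shLMO2-1, 2377 under shLMO2-2, 3024 over both hairpins and 257 between the hairpins, against 1239, 1320, 1823 and 113 without it, and 5 and 3 S100 genes under shLMO2-1 and between the hairpins. The block added S100A7 (adjusted p = 0.0202) and S100A9 (0.00225) under shLMO2-1, S100A14 (0.02) under shLMO2-2, S100A6 (0.0454) over both hairpins, and S100A6 (0.0304), S100A8 (0.00274) and S100A9 (0.0231) between the hairpins. With only the groups compared, 695, 776 and 189 genes were called under shLMO2-1, under shLMO2-2 and between the hairpins, and 1 S100 gene under shLMO2-1 and 1 between the hairpins. Between the hairpins, 378 genes and 4 S100 genes were called with no filter on low counts, 316 and 2 with DESeq2, and 1 S100 gene with limma-voom. The cause of these differences was not tested.

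Leaving out 1 library gave 546 to 1397 genes under shLMO2-1, 494 to 1243 under shLMO2-2, 947 to 1592 over both hairpins and 38 to 239 between the hairpins, and 1 to 2, 3 to 4, 3 to 4 and 0 to 1 S100 genes. The gene counts fell by more than 1.5 times without control replicate 3 in all 4 comparisons (649, 640, 947 and 75), without any 1 library of the hairpin compared in both single-hairpin comparisons, without shLMO2-2 replicate 2 over both hairpins (1190) and without any 1 hairpin library between the hairpins. The count between the hairpins rose to 239 without control replicate 1. With the longest transcript or all exons together as the length, 8 and 8 of the 10 genes changed rank by level.

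Directions turned for uncalled values. With total counts alone the log2 value was -0.0272 for S100A2 under shLMO2-2, -0.0108 for S100A11 and -0.0134 for S100A16 over both hairpins, and -0.00812 for CD14 between the hairpins. With at least 10 counts in every library CD14 was -0.00108, and with the length trend removed CD14 was -0.0173 and S100A2 -0.00395. When 1 library was left out, the ranges were -0.149 to 0.0172 for S100A16, -0.0135 to 0.105 for S100A14, -0.188 to 0.0639 for S100A13, -0.213 to 0.242 for S100A7A and -0.051 to 0.141 for SLPI under shLMO2-1. They were -0.087 to 0.0658 for S100A6 and -0.0299 to 0.0535 for S100A2 under shLMO2-2. Over both hairpins they were -0.0217 to 0.0627 for S100A11, -0.0515 to 0.0739 for S100A16, -0.0218 to 0.16 for S100A13 and -0.00581 to 0.45 for S100A7A. Between the hairpins they were -0.00789 to 0.0664 for S100A10, -0.159 to 0.117 for LCN2, -0.175 to 0.283 for CD14 and -1.002 to 0.449 for LMO2. Depth limits S100A1, S100A5, S100A12, S100Z and LMO2, which have few counts.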
